A study of Mus musculus with 6 samples.

Results

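Malat1 and Neat1 are long non-coding RNAs that stay in the cell nucleus, and their genes lie side by side on mouse chromosome 19. They were examined in adrenal glands of adult female C57Bl/6J mice. All probe sets whose platform annotation holds either symbol were taken, also those that hold a further symbol, and each was compared apart. Of these 2 genes, 1 was found. Malat1 had 2 probe sets among the 25150 of the arrays, 1 under its own name alone and 1 shared with Ramp2, the gene of a receptor activity modifying protein. Neat1 had 0 probe sets under its name in that annotation and was not analysed here. The pair was chosen on the log2 differences between the groups on these same arrays, so the values of Malat1 are given as a description, with no test.

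The CGP group were offspring whose mothers received CGP 39551, which blocks NMDA receptors for glutamate, at 5 mg/kg body weight by mouth during gestation and on to weaning. The control group had mothers without the drug. Adrenals of both groups were taken at 21 weeks of age, RNA of 18 mice was pooled in each group, and 3 Affymetrix whole-transcript arrays were hybridized per group. The labels leave unsaid whether a group's 3 arrays had separate pools, so all p-values rest on the spread between arrays alone, and how mice of a group vary is not known from them. In RNA from whole tissue, fewer cells of a type and less RNA per cell cannot be told apart. Values are log2 expression values, so that a difference of 1 is a doubling.

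Malat1 is among the most plentiful long non-coding RNAs of mammalian cells. It gathers in nuclear speckles, bodies rich in splicing factors, and its end is made in an unusual way. RNase P cuts off a small transfer RNA-like RNA there, and the new end is protected by a triple helix in place of a poly(A) tail. Neat1 is the scaffold of paraspeckles, neighbouring bodies that hold RNA-binding proteins such as Sfpq and Nono. Mice without Malat1 are viable, while female mice without Neat1 show defects of the corpus luteum and of the mammary gland.

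The promoter of Malat1 is shown because Malat1 is the RNA the values below turn on. It lies on the minus strand at chr19:5802623-5802922 (GRCm38.p6, RefSeq), from 250 bases before the start of the gene to 50 bases after it, and is written 5′ to 3′. The capitals mark TGACG, the core letters of the cAMP response element, on either strand.
Malat1: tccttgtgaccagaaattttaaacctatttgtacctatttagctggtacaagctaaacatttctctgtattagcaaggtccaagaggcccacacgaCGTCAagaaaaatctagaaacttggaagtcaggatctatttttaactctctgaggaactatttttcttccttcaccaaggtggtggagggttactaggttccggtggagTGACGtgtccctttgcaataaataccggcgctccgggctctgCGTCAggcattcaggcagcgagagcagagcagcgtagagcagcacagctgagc
TGACG was found 3 times in this window, with first bases at -154, -45 and -3 from the start, and 20.8% of 32851 promoters of the same length held it at least 1 time. ACGTG, the core letters of hypoxia response elements, was found 1 time, with its first base at -43. It overlaps the TGACG at -45, and 19.6% of the promoters held it. The other motifs searched on both strands were not found in these letters. Of these, TATAAA is the core of the TATA box and was held by 13.6% of the promoters. The box CCAAT, bound by nuclear factor Y, was held by 37.4% and the box GGGCGG, bound by Sp1, by 35.7%. The full cAMP response element TGACGTCA was held by 1.79%, the heat shock element GAANNTTC by 7.86%, the E box CACGTG by 7.15% and the AP-1 site TGANTCA by 7.81%. The glucocorticoid response element was held by 0.475%. A match is a description of the letters and shows no binding.

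At its own probe set, Malat1 had values of 11.11, 11.20 and 11.26 on CGP arrays 1, 2 and 3, against 10.78, 10.57 and 10.66 on control arrays 1, 2 and 3. All 3 CGP values lay above all 3 control values. The means were 11.19 ± 0.08 in the CGP group and 10.67 ± 0.11 in controls (SD, n = 3 arrays each), a difference of 0.52, or 1.43-fold. Over the 9 pairs of a CGP and a control array the difference ran from 0.33 to 0.70, while the arrays of the CGP group spanned 0.16 and those of the controls 0.21. The gap was thus wider than the span of either group. CGP array 1 was the lowest of its group and control array 1 the highest of the controls, and this pair had the smallest difference.

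The probe set shared with Ramp2 moved far less. Its values were 14.034, 14.064 and 14.095 on the CGP arrays, against 14.013, 13.975 and 14.031 on the control arrays. The groups did not overlap, but the lowest CGP value and the highest control value lay only 0.0028 apart. The means were 14.06 ± 0.03 in the CGP group and 14.01 ± 0.03 in controls (SD, n = 3 each), a difference of 0.06, or 4.06%. This probe set sat near the top of the scale, where the highest value of any probe set was 14.5 to 14.6 on each array. The differences of the 62 other probe sets within 0.5 of its mean value ran from -0.05 to 0.19. In the corresponding window around the Malat1 probe set, 1169 others ran from -1.18 to 0.67.

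Ramp2 alone, at a probe set of its own, had values of 9.21, 9.26 and 9.18 on the CGP arrays, against 9.28, 9.20 and 9.35 on the control arrays. These groups overlapped, with a difference of -0.06 (SE 0.05, limma adjusted p = 0.579). How the signal of the shared probe set divides between Malat1 and Ramp2 was not tested.

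**Figure D1:**
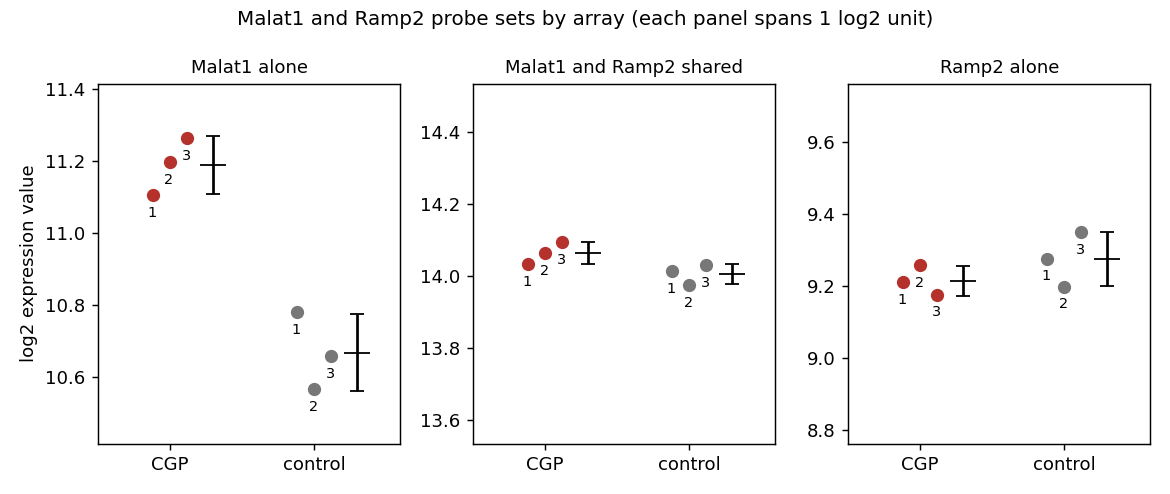
Log2 expression values (vertical axis, each panel spanning 1 unit) of 3 probe sets on the 3 CGP arrays (red) and the 3 control arrays (grey), numbered by array, with black bars for the mean and SD. Malat1 alone had means of 11.19 in CGP and 10.67 in control arrays, while the shared probe set (14.06 and 14.01) and Ramp2 alone (9.22 and 9.27) differed by 0.06 in size.

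Set among all 17022 probe sets tested, the difference of Malat1 ranked 48 from the top (0.282% at or above it) and that of the shared probe set ranked 4555 (26.8%). These ranks describe the values that led to the choice of Malat1. In the whole comparison limma called 3.46% of probe sets at an adjusted p under 0.05, 1.8% higher and 1.66% lower in the CGP group. The groups did not overlap at 26.2% of probe sets, with the CGP group above at 13.3%, as at both probe sets of Malat1, and below at 12.8%. The median difference was -0.01, 45.2% of differences were above 0, and 19.1% of probe sets had an unadjusted p under 0.05.

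**Figure D2:**
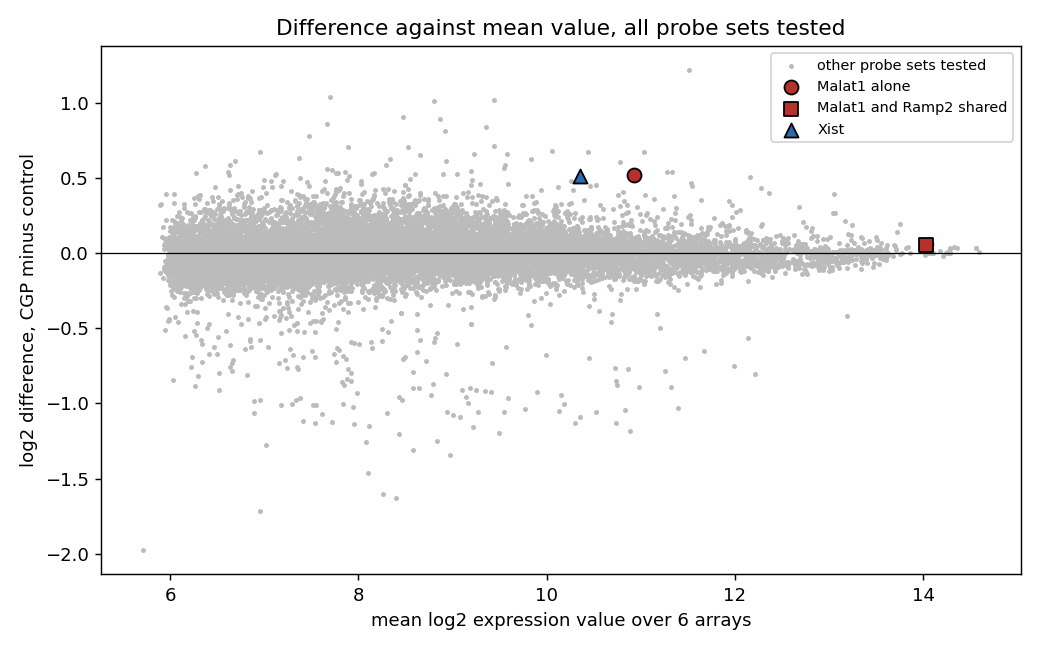
Log2 difference (vertical axis, CGP minus control) against the mean log2 value over the 6 arrays (horizontal axis) for the 17022 probe sets tested (grey). Malat1 alone (circle, 0.52) and Xist (triangle, 0.51) lie above the main band, while the probe set shared by Malat1 and Ramp2 (square, 0.06) lies at the bright end close to 0.

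Markers of other tissues moved with the groups, and their part in the difference of Malat1 was not tested. Of 19 adipocyte genes tested, 15 rose and 0 fell, with the log2 of their summed level at 15.69 to 15.71 on the CGP arrays and 15.23 to 15.26 on the control arrays. The smallest p values of this list belonged to Ucp1, the uncoupling protein of brown fat (difference 1.22), Aqp7, a glycerol channel (1.02), Slc2a4, the insulin-responsive glucose transporter (0.65), and Trarg1, which regulates that transporter's traffic (0.71). Of 35 hepatocyte genes tested, 30 fell and 1 rose, with summed levels of 15.59 to 15.61 on the CGP arrays and 16.07 to 16.08 on the control arrays. The smallest p values there belonged to Hgd of tyrosine breakdown (difference -1.25), Cps1 of the urea cycle (-1.20), Kng1, the kininogen (-1.05), and the apolipoprotein Apoa2 (-1.03). The hepatocyte gene that rose was Pck1 (0.45), which fat cells also express. Lep in the adipocyte list and Otc in the hepatocyte list lay below the array background on all 6 arrays. That background, at the 75th percentile of 128 sensory receptor probe sets, was 6.41 to 6.55 on the CGP arrays and 6.49 to 6.65 on the control arrays. Of 11 fibroblast genes 2 rose (Mfap5 and Pi16). Summed levels of this list were 12.74 to 12.79 on the CGP arrays and 12.61 to 12.64 on the control arrays. All 11 differences were above 0 (median 0.11), against 45.2% of all probe sets. In 6 of the 11 the CGP group lay above without overlap and in 0 below, against 13.3% and 12.8% of all probe sets. An unadjusted p under 0.05 was reached by 5 of the 11, against 19.1% of all probe sets. Pi16 lost its call whichever of the 6 arrays was dropped (adjusted p up to 0.203) and Mfap5 on dropping CGP array 1, 2 or 3 (up to 0.0726), so that 0 fibroblast genes were called without CGP array 2 or CGP array 3.

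The markers of the adrenal itself were well above background on every array. Star, which carries cholesterol into mitochondria, averaged 13.56 in the CGP group and 13.47 in controls, and the groups did not overlap (limma adjusted p = 0.306). Cyp11a1, which makes pregnenolone from cholesterol, averaged 13.73 and 13.68 (adjusted p = 0.603), and Th, tyrosine hydroxylase of the catecholamine pathway, 13.05 and 13.04 (adjusted p = 0.940). Of 11 genes of the steroidogenic cortex 1 rose (Cyp11b2), while 10 of the 11 differences were above 0, against 45.2% of all probe sets. In 5 of the 11 the CGP group lay above without overlap and in 1 below, against 13.3% and 12.8% of all probe sets. Their summed levels were 16.67 to 16.72 on the CGP arrays and 16.60 to 16.65 on the control arrays. Limma called 0 of 11 chromaffin cell genes, with Gata3 and Ddc at an unadjusted p under 0.05. Of the chromaffin differences 3 were above 0, and the summed levels overlapped. In blood and immune cells 1 of 10 rose (Alas2). Of 6 genes of nerve and glia, Mbp rose and Erbb3 fell. The call of Mbp held on dropping control array 1 and was lost on dropping each other array (adjusted p up to 0.146), and that of Erbb3 was lost without CGP array 2, CGP array 3 or control array 3 (up to 0.0804). In the endothelial list, 0 of 12 endothelial genes were called, with Tek at an unadjusted p under 0.05. Of the 12 endothelial differences 9 were above 0, against 45.2% of all probe sets. In 5 of the 12 the CGP group lay above without overlap and in 2 below, against 13.3% and 12.8% of all probe sets. The summed levels of this list overlapped. The arrays within a group differed by an SD of 0.102 to 0.128 over all probe sets in the CGP group and 0.134 to 0.177 in controls, against 0.162 to 0.217 between arrays of different groups. Control array 1, the control with the highest Malat1 value, differed from control array 2 (0.177) by more than from CGP array 2 (0.162), and least from control array 3 (0.137).

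Among other long non-coding RNAs, Xist came closest to Malat1. Xist coats and silences the inactive X chromosome of female cells. Its values were 10.54, 10.71 and 10.60 on the CGP arrays, against 10.25, 10.04 and 10.02 on the control arrays. As for Malat1, CGP array 1 was the lowest of its group and control array 1 the highest of the controls, and the groups did not overlap. The rise was 0.51 (SE 0.08, limma adjusted p = 0.0117), or 1.43-fold. Without CGP array 2, CGP array 3 or control array 3 the call of Xist was lost (adjusted p up to 0.064, rise 0.47 to 0.52).

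Of 47 listed long non-coding RNAs 17 were tested, of which Crnde and Dnm3os lay below the array background on all 6 arrays and Rian on 5. Xist was the 1 that rose, 0 fell, and the other 16 were not called, while 7 of the 17 had an unadjusted p under 0.05, against 19.1% of all probe sets. The share called was 5.88%, against 3.46% of all probe sets, and the median difference was -0.02, against -0.01. Meg3, an imprinted RNA, had means of 12.21 in the CGP group and 12.07 in controls (difference 0.14, adjusted p = 0.146), and Tug1, expressed in many tissues, had 10.36 and 10.23 (0.13, adjusted p = 0.252). Gas5, a host of small nucleolar RNAs, ran the other way with 10.97 in the CGP group and 11.08 in controls (-0.11, adjusted p = 0.368). Norad, a cytoplasmic RNA that binds Pumilio proteins, had 10.66 and 10.67 (adjusted p = 0.851). The difference of Malat1 was thus close to that of Xist, and those of the other 16 RNAs lay between -0.28 (Snhg17, adjusted p = 0.0814) and 0.23 (Airn, adjusted p = 0.260). Snhg17 and Airn were picked here for these values.

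The proteins of nuclear speckles, where Malat1 resides, were covered by 31 tested genes of 33 listed. Of these, 2 rose, 0 fell and 29 did not pass the test, a share of 6.45% against 3.46% of all probe sets, with a median difference of 0.06 against -0.01. The count that rose was 1 without CGP array 1, control array 2 or control array 3, 0 without CGP array 2 or CGP array 3 and 4 without control array 1. In 25 of the 31 (80.6%) the difference was above 0, against 45.2% of all probe sets. The groups lay apart with the CGP group above in 10 of the 31 genes, against 13.3% of all probe sets, and below in 0, against 12.8%.

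Sf3b1, a core subunit of the splicing machinery that recognizes the branch point, had values of 9.91, 9.87 and 9.91 on the CGP arrays, against 9.62, 9.51 and 9.59 on the control arrays. It rose by 0.32 (SE 0.05, limma adjusted p = 0.0105). Son, a scaffold protein of nuclear speckles, had 9.84, 9.94 and 9.96 on the CGP arrays, against 9.69, 9.61 and 9.66 on the control arrays. It rose by 0.26 (SE 0.05, limma adjusted p = 0.0356). Both genes had non-overlapping groups, and both calls depended on single arrays. Sf3b1 lost its call on dropping CGP array 1, 2 or 3 (adjusted p up to 0.0632), and Son without CGP array 2 or 3 or control array 2 or 3 (up to 0.164).

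Srrm2, a large splicing protein and another scaffold of the speckle, did not pass the test. It had 11.89, 11.89 and 11.90 on the CGP arrays, against 11.65, 11.59 and 11.73 on the control arrays (difference 0.23, SE 0.05, adjusted p = 0.0504). It passed under 5 alternatives, which were a minimum of 7, quantile normalization, median centring, a variance trend with robust prior and array weights (adjusted p from 0.00122 to 0.0377). Under the rest it did not pass. Among these were each array left out in turn (adjusted p from 0.0634 to 0.189) and the array number as a block (0.183). Testing all probe sets past the filter gave 0.104 and steady gene centring 0.0836. Srsf1, a splicing factor whose placement in speckles has been linked to Malat1, averaged 9.39 in the CGP group and 9.37 in controls (adjusted p = 0.819).

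Of the 30 listed paraspeckle proteins 25 were tested, and 0 rose, 1 fell and 24 were not called. The share called was 4%, against 3.46% of all probe sets, and the median difference was 0.04, against -0.01. In 16 of the 25 (64%) the difference was above 0, against 45.2% of all probe sets. The CGP group lay above without overlap in 5 of the 25 and below in 2, against 13.3% and 12.8% of all probe sets. Cirbp, a cold-inducible RNA-binding protein, was the gene that fell. It had 9.96, 10.04 and 9.99 on the CGP arrays, against 10.29, 10.26 and 10.27 on the control arrays, and the groups did not overlap. The difference was -0.28 (SE 0.04, limma adjusted p = 0.0162), and dropping control array 3 or a CGP array ended the call (adjusted p up to 0.0825).

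The core proteins of the paraspeckle were not called. Sfpq, needed for paraspeckles to form, averaged 10.41 ± 0.04 in the CGP group and 10.31 ± 0.07 in controls (SD, n = 3 each, limma adjusted p = 0.329). Nono, its partner, ran from 10.95 to 11.05 on the CGP arrays and from 10.87 to 10.92 on the control arrays (difference 0.11, SE 0.05, limma adjusted p = 0.267). In both genes all 3 CGP values lay above all 3 control values. Pspc1, the further member of this protein family, had overlapping groups with means of 8.71 in the CGP group and 8.66 in controls (adjusted p = 0.753). Tardbp, an RNA-binding protein also found in paraspeckles, had 7.84 and 7.78 (adjusted p = 0.636).

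Genes that make, protect or mark the ends and bases of these RNAs did not pass the test. Limma called 0 of 22 genes of RNase P, triple helix binding and RNA methylation (0%). An unadjusted p under 0.05 was reached by 3 of the 22, a share below the 19.1% of all probe sets. Rpp40 of this list lay below the array background on all 6 arrays. Elac2, the enzyme that trims the transfer RNA-like piece of Malat1, averaged 10.29 in the CGP group and 10.30 in controls (adjusted p = 0.964). Mettl16, a methyltransferase that binds the Malat1 triple helix, averaged 7.48 and 7.45 (adjusted p = 0.806). The 3, named after their values were seen, were Rpp21, a subunit of RNase P (difference -0.21, adjusted p = 0.0847), Virma, a subunit of the m6A writer complex (0.20, adjusted p = 0.130), and Rpp25l, a protein similar to an RNase P subunit (-0.18, adjusted p = 0.189). Of 17 transcriptional regulators 13 were tested, with 0 called. The CGP group lay above without overlap in 4 of the 13 and below in 2, against 13.3% and 12.8% of all probe sets. An unadjusted p under 0.05 was reached by 4 of the 13, against 19.1% of all probe sets. The 4, named in the same way, were Atf2 (difference 0.21, adjusted p = 0.0957) and Creb1 (0.12, adjusted p = 0.235), factors that bind cAMP response elements, Epas1, a hypoxia-inducible factor (0.12, adjusted p = 0.190), and Med1, a subunit of Mediator (0.11, adjusted p = 0.229).

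**Figure D3:**
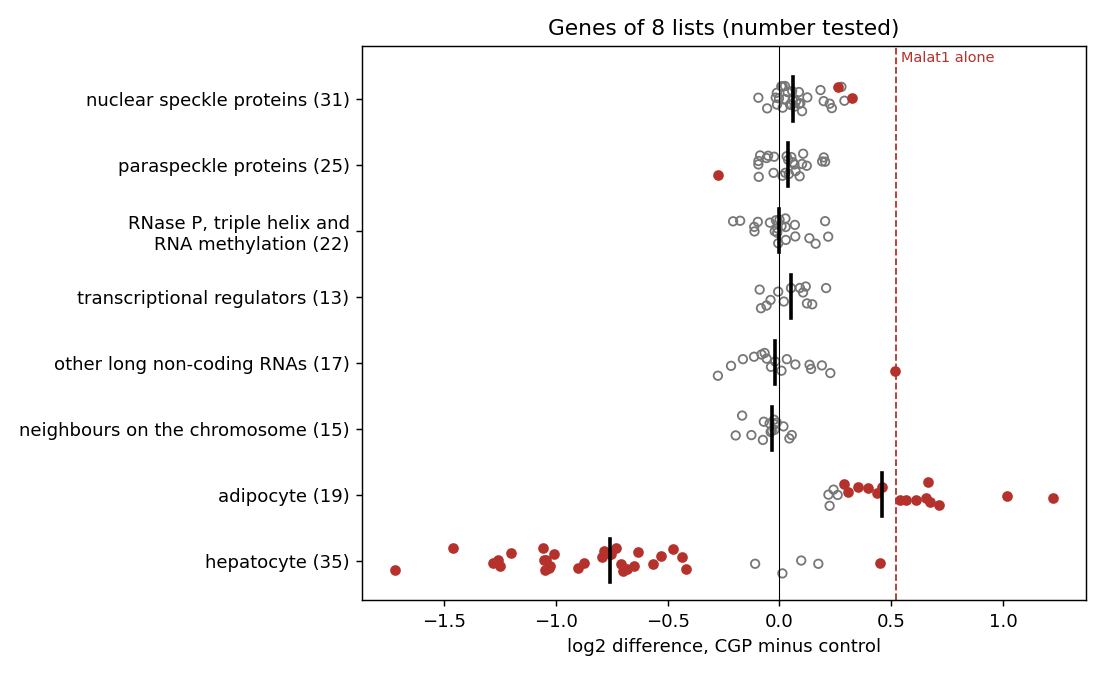
Log2 differences (CGP minus control, horizontal axis) of the tested genes of 8 lists (rows, with the number tested), where filled points passed limma's test at an adjusted p under 0.05 and open points did not, with a black bar at the list median and a dashed line at the Malat1 probe set (0.52). Xist is the filled point of the long non-coding RNAs, and the medians of the adipocyte (0.46) and hepatocyte (-0.76) lists stand apart from the other 6 (-0.03 to 0.06).

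The protein-coding genes around Malat1 and Neat1 on the chromosome had smaller differences than Malat1. Of the 8 protein-coding genes on each side, 15 were tested, and limma called 0 of them (0%), with 3 of the 15 at an unadjusted p under 0.05, near the 19.1% of all probe sets. Their differences ran from -0.20 to 0.05, with a median of -0.03. Of the 15, 3 were above 0 (Ltbp3, Capn1 and Pcnx3), against 45.2% of all probe sets. Frmd8, the nearest protein-coding gene beyond Neat1, averaged 9.46 ± 0.05 in the CGP group and 9.48 ± 0.02 in controls (SD, n = 3 each, limma adjusted p = 0.818). The CGP group lay above the controls without overlap in 0 of the 15, against 13.3% of all probe sets. It lay below without overlap in 3 genes, against 12.8% of all probe sets, and these were named after their values were seen. They were Fam89b (difference -0.17, adjusted p = 0.102) and Znrd2 (-0.13, adjusted p = 0.187) on the Malat1 side and Slc25a45 (-0.20, adjusted p = 0.149) on the Neat1 side. Among the 15, the difference nearest to that of Malat1 was 0.05, at Ltbp3, a binding protein of latent transforming growth factor beta.

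**Figure D4:**
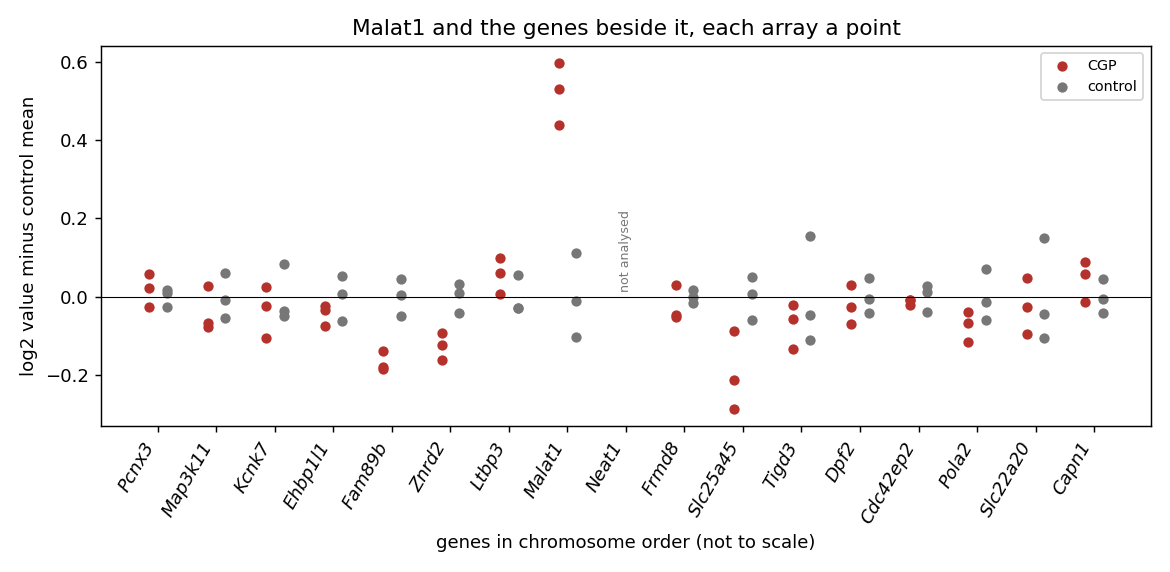
Log2 value minus the mean of the control arrays (vertical axis) for Malat1 and the 15 tested protein-coding genes on both sides of the Malat1 and Neat1 pair in chromosome order (horizontal axis, not to scale), with a red point for each CGP array and a grey point for each control array. The Malat1 points of the CGP group stand well above 0, while the differences of the 15 tested genes beside it lie between -0.20 and 0.05.

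The pattern of Malat1 over the 6 arrays was compared with those of 16033 other probe sets of a single symbol by the root mean square distance between values centred on their own mean, a measure in log2 units. The nearest were Fam13a (distance 0.03), Ide, the insulin-degrading enzyme (0.04), Rspo3, a secreted Wnt agonist of the adrenal capsule (0.04), Cspp1, a centrosome and spindle protein (0.05), and Adgrg2, an adhesion receptor (0.06). The median distance was 0.29. Their differences between the groups lay between 0.43 and 0.53, which the measure selects for and which are no further result. Xist followed directly, with 5 probe sets nearer and a distance of 0.06. The 19 tested adipocyte genes were spread from 0.07 (Fabp4) to 0.35 (Ucp1). Fabp4 had 12 probe sets nearer to Malat1, Adipoq 22, Dgat2 47 and Lpl 59. At the far end of this list, Aqp7 had 6404 nearer and Ucp1 14033. These ranks too follow from the group differences that the measure selects for.

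**Figure D5:**
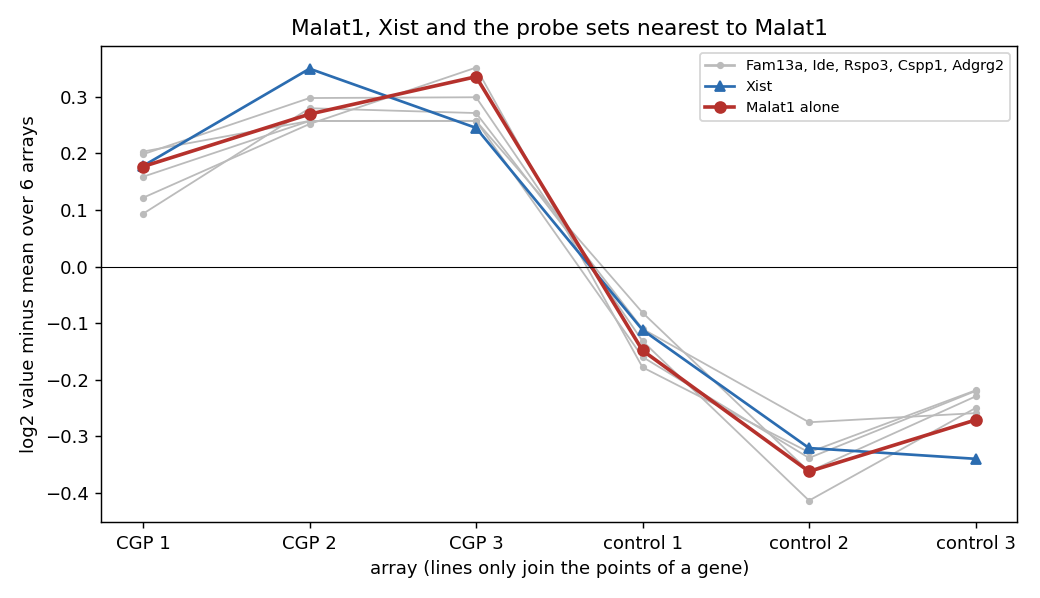
Log2 value minus the mean over all 6 arrays (vertical axis) on the 3 CGP and 3 control arrays (horizontal axis) for Malat1 (red circles), Xist (blue triangles) and the 5 probe sets nearest to Malat1 (grey). All 7 lie above 0 on the CGP arrays and below 0 on the control arrays, with a group difference of 0.43 to 0.53.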

How the data were processed

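The authors deposited log2 expression values of 25150 probe sets on 6 arrays. The submitters' processing notes name RMA (background correction, quantile normalization and summary of probes) and Partek, and the genome build is not given in the sources used here. Arrays have no read depth, so their number limits the precision. The platform annotation named 16769 probe sets with 1 gene symbol, 1031 with several and 7350 with none. Of the 16769, 16723 were found in RefSeq by Entrez number, and 0 symbols changed. The test took in 17022 probe sets, both of Malat1 included, that had a symbol and reached a log2 value of 6 on 3 or more of the 6 arrays. CGP and control arrays were compared by lmFit and eBayes of limma 3.58.1, run under R 4.3.3, in a two-sided test without covariates, checked on simulated data. Benjamini-Hochberg adjustment ran over all tested, and an adjusted p under 0.05 was a call. SE is the moderated standard error. Lists used the brightest probe set with 1 symbol of each gene. The members, lists and alternatives were chosen with earlier results of these data known. Named were all probe sets of Malat1, up to 4 called genes per list with the smallest p, a fixed set of genes, and the 5 probe sets nearest to Malat1. The alternatives changed the filter, the choice of probe sets, the scaling (3 ways) and the variance model, weighted the arrays, blocked on their numbers, or dropped single arrays. Plots were drawn with matplotlib 3.10.9.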

Additional observations from a re-analysis of the deposited data

How the results depend on the processing

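The difference of Malat1 at its own probe set kept its direction and moved by less than the SD between arrays under all 11 alternatives run on it. It was 0.51 to 0.53 with quantile normalization, median centring, centring on 12 steady genes or array weights, 0.52 with the array number as a block, and 0.47 to 0.58 when each array was left out in turn. The shared probe set gave 0.03 to 0.07 over the same alternatives. The scalings moved the median of all differences by under 0.01. The count of 589 called probe sets (307 higher, 282 lower) became 382 (164 higher) when unnamed probe sets were tested too, 1245 (714 higher, 531 lower) with a variance trend and robust prior, and 1909 (1057 higher, 852 lower) with array weights. Leaving out each array gave 250 to 1078 (78 to 594 higher, 167 to 484 lower), with the most without control array 1. With the array number as a block (replicate block) the count was 223 (61 higher, 162 lower), and Xist, Sf3b1, Son, Cirbp, Mfap5, Pi16, Alas2, Mbp and Erbb3 lost their calls. Of the adipocyte genes 11 then rose in place of 15, and of the nuclear speckle genes 0 in place of 2, which were 7 with array weights. For arrays of the same number, deviations from the group means correlated negatively (-0.365, -0.173 and -0.124 over 17022 probe sets). With 3 arrays per group these values cannot decide whether the numbers pair the arrays, which was not tested. When all probe sets past the filter were tested, Son lost its call (adjusted p = 0.0785). Small uncalled differences changed sign. Th gave -0.0013 with steady gene centring and -0.0043 to 0.028 when each array was left out in turn. With each array left out, Elac2 gave -0.045 to 0.017, Mettl16 -0.0070 to 0.056, Pspc1 -0.041 to 0.11, Srsf1 -0.00053 to 0.061 and Tardbp -0.0067 to 0.13. The cause of these changes was not tested. Few arrays from pooled RNA limit the precision, and the shared probe set near the top of the scale limits what it can show.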
